A study of Mus musculus with 17 samples.

Results

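Interferon-stimulated genes are the genes that cells switch on when an interferon binds its receptor. The 40 genes described here were named by symbol (type I and type II interferon response genes) and matched by Ensembl identifier to 40 of the 52545 rows of a table of liver gene expression. Each of the 40 reached a normalized count of at least 10 in at least 5 of the 17 libraries, as did 18624 genes in all, so no member was left out of a test. The members were sorted by role into 3 transcription factors, 4 RNA and DNA sensors, 4 genes of the IFIT family, 6 of the OAS family, 3 of the ISG15 system, 7 antiviral effectors, 6 GBP and IRG GTPases and 7 other induced genes.

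Type I interferons (IFN-alpha and IFN-beta) signal through the receptor IFNAR and the kinases JAK1 and TYK2, which leads to a complex with STAT2 and IRF9 that binds the interferon-stimulated response element (ISRE) in DNA. Type II interferon (IFN-gamma), made mostly by T and NK cells, signals through its own receptor to genes with the gamma-activated site (GAS). The induced proteins sense foreign nucleic acid, block viral translation and replication, modify proteins with the ubiquitin-like ISG15, or damp the signal itself. In liver, hepatocytes, Kupffer cells, infiltrating macrophages and endothelial cells can all respond to interferon.

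All mice were C57BL/6J males, and RNA was taken from liver tissue free of tumour at an age of 32 weeks. The regular diet group held 5 mice without treatment. The vehicle group held 6 mice that were given 100 mg/kg of the liver carcinogen diethylnitrosamine (DEN) in week 1, were fed CDA-HFD (a diet rich in fat and without choline, with amino acids in place of protein) and received PBS by 1 intraperitoneal injection a week for 16 weeks. The antibody group held 6 mice with the same DEN dose, diet and injection schedule that received 500 µg of a monoclonal antibody against claudin-1 (CLDN1 mAb), a tight junction protein, in place of PBS. Vehicle and regular diet mice thus differed in DEN, diet and injections together, and no group had DEN or the diet alone. The library codes ran from 31 to 35 in the regular diet group and lay on both sides of that run in the other groups, so a step tied to that run and the regular diet cannot be told apart.

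Stretches of promoter sequence are shown because the ISRE joins genes that respond to the same signal. RefSeq promoter windows (GRCm38.p6, 250 bases before to 50 bases after each start) matched 29 of the 40 members with 35 windows. The ISRE core was searched as GAAA, any 2 bases and GAAA again, on both strands (the other strand reads TTTC in place of GAAA), and matches were allowed to overlap. It was found in 19 of the 35 member windows (54.3%), belonging to 18 members, against 1131 of all 32851 windows of the same length (3.44%). The GAS core TTCNNNGAA, which reads the same on both strands, was found in 7 member windows (20%) against 8.30% of all windows. The lines below give 40 bases around the core nearest the start, 5′ to 3′ on the strand of the gene, with the core in capitals. The first 7 genes rose in vehicle livers and the last 3 did not pass the test there. They are examples from the 18 members with the core. Of those not shown, Ddx58, Gbp2, Gbp3, Gbp7, Rsad2 and Trim30a rose, and Ifih1 and Irgm1 did not pass.
Ifit1, chr19:34640789-34640828, plus strand: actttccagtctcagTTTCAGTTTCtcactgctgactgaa
Ifit3, chr19:34583392-34583431, plus strand: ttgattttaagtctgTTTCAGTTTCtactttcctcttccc
Ifit3b, chr19:34607788-34607827, plus strand: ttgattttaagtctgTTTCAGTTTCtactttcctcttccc
Oas1a, chr5:120907515-120907554, minus strand: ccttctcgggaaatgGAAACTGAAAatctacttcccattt
Oas1g, chr5:120887601-120887640, minus strand: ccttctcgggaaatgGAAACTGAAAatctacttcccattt
Oas3, chr5:120777710-120777749, minus strand: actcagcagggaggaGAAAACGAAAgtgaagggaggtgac
Isg15, chr4:156200860-156200899, minus strand: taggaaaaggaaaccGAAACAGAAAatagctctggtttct
Stat2, chr10:128270261-128270300, plus strand: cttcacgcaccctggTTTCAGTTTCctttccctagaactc
Igtp, chr11:58199507-58199546, plus strand: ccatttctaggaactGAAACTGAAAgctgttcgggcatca
Bst2, chr8:71537572-71537611, minus strand: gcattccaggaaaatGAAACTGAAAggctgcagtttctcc
Ifit3 and Ifit3b carried the same 40 letters, as did Oas1a and Oas1g. The windows of 11 members did not hold these letters, among them Oasl2, Ifi44 and Ifit2, which rose, and Irf7, which did not pass. Any link of the letters to the rise was not tested. A match is a description of the letters and not a measured binding site.

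Values are the authors' normalized counts, and 1 regular diet library stood apart from the rest. Deposited totals were 74.6 M in regular diet replicate 1, and ran up to 51.2 M in the other regular diet libraries, from 29.7 M to 42.1 M in vehicle and from 35.4 M to 42.8 M in antibody libraries. The fragments behind each library, estimated from the smallest step between low values, ran from 27.7 M in antibody replicate 1 to 59.5 M in vehicle replicate 3. Every member lay well above the value of a single fragment in every library. Relative to the median of the other regular diet libraries, replicate 1 read 0.83 log2 units higher over the genes with the shortest exons (length class 1 of 5, each with as many tested genes) and fell by 0.71 below it over those with the longest (class 5). The members moved with length in the same library, with a median of 1.92 over the 6 in class 1 and -0.46 over the 5 in class 5. Replicate 1 was the highest regular diet library for 21 members and the lowest for 8. Antibody replicate 1 was the lowest antibody library for 21 members. The shares of all genes for these counts were not computed. Against its own group, antibody replicate 1 also fell with exon length, from 0.22 in class 1 to -0.28 in class 5. Vehicle replicate 2 (0.05 to -0.28) and antibody replicate 3 (0.07 to -0.19) fell too. Others rose, such as vehicle replicate 6 (-0.13 to 0.20) and antibody replicate 6 (-0.07 to 0.18). The counts of members that passed the test, in all and by role, are therefore also given without regular diet replicate 1. The hepatocyte markers were present at high levels in all groups, except that Alb was listed at 0 in all 17 libraries, so a listed 0 in this table is not read as absence.

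**Figure D1:**
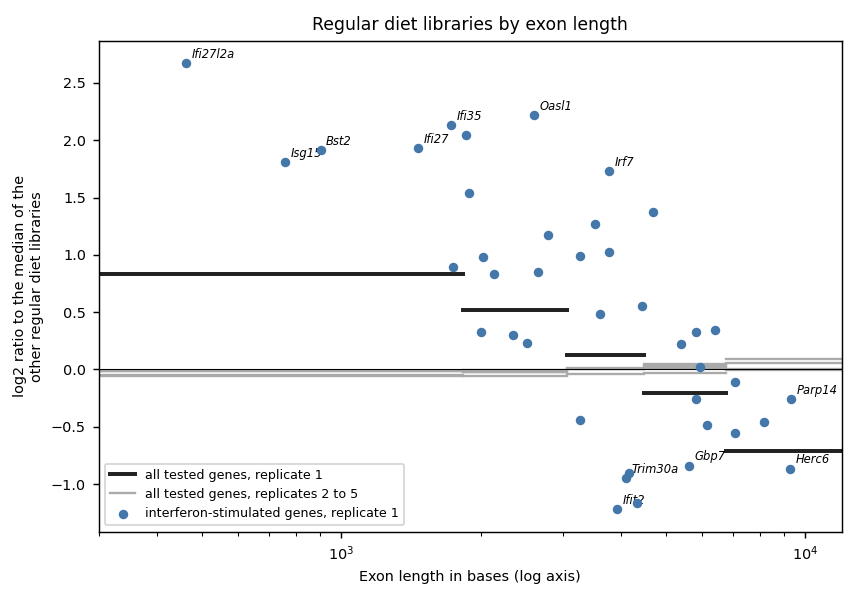
Log2 ratio of each regular diet library to the median of the other regular diet libraries against exon length (log axis). Points are the 40 members in replicate 1 and bars are medians of all tested genes per length class (black for replicate 1, grey for replicates 2 to 5), cut at the axis ends. The black bars run from 0.83 at the shortest exons to -0.71 at the longest, while the grey bars stay near 0.

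Levels per kilobase of exon spanned a wide range. As a median over all 17 libraries, Bst2 (tetherin, which holds budding virus at the cell surface) stood at 7946 normalized counts per kilobase and Ifi27, a mitochondrial and nuclear membrane protein, at 7537. The GTPase Iigp1 stood at 2549, the modifier Isg15 at 2050.4 and Oas3, the synthase of long oligoadenylates, at 49.3. These medians pool groups whose levels differ, so they give no order within a group.

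**Figure D2:**
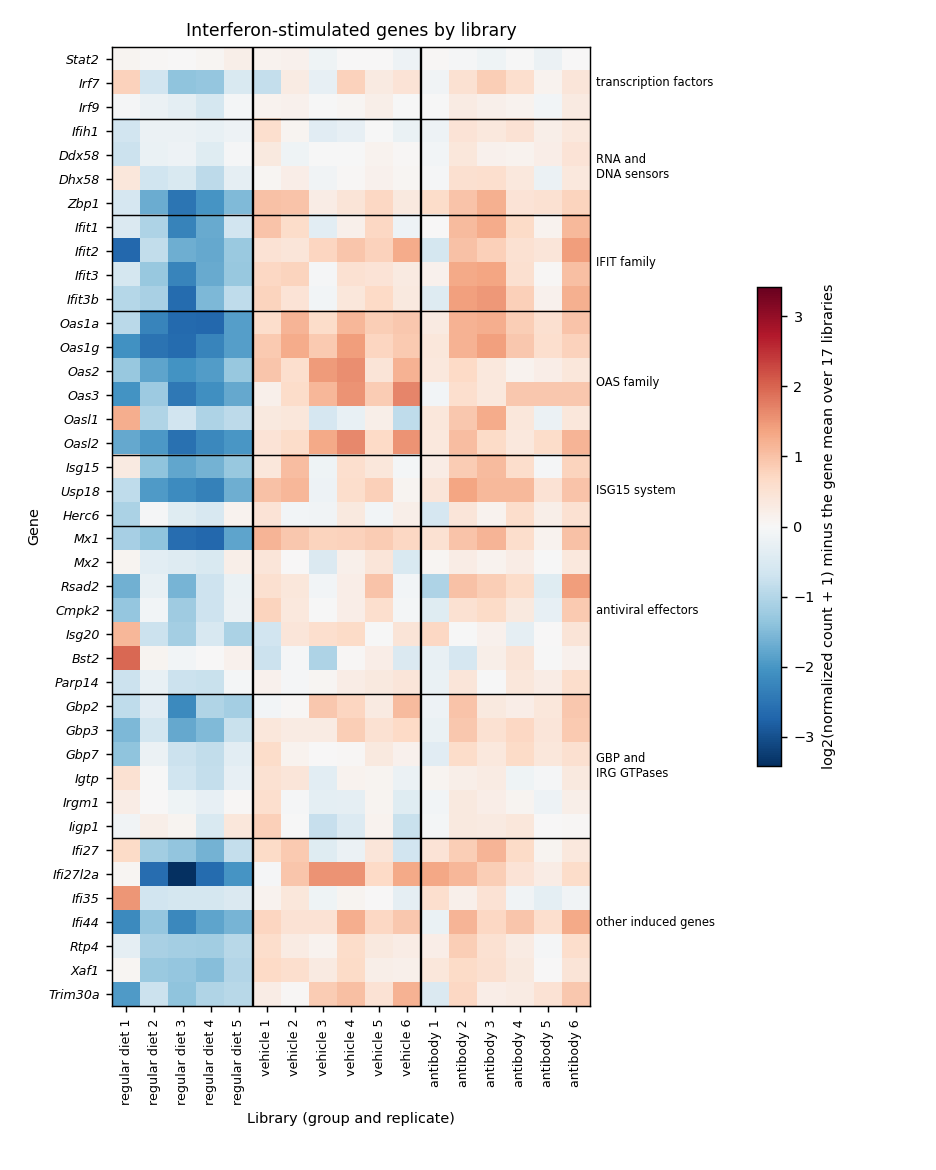
Log2(normalized count + 1) of the 40 members, grouped by role, in each of the 17 libraries, minus each gene's mean over all libraries. The 5 regular diet columns are lowest (blue) for most IFIT and OAS genes, Mx1, Usp18 and Ifi44, and regular diet replicate 1 stands out as high (red) for Bst2, Ifi35, Oasl1 and Isg20.

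The first comparison asked how livers after DEN and CDA-HFD differed from regular diet livers. Of the 40 members, 27 were higher in vehicle livers (67.5%), 0 were lower and 13 did not pass the threshold (limma, Benjamini-Hochberg adjusted p under 0.05 over all tested genes). Over all 18624 genes, 29.8% were higher and 20.7% lower. The members were chosen with earlier results of these data known, so these counts describe the list and do not test it. The median log2 fold change of the members was 1.26, against 0.04 over all genes, and 22 members were at least 2-fold higher. Every vehicle library stood above every regular diet library for 23 members, against 19.1% of all genes, and below for 0, against 10.5%. Without regular diet replicate 1, 32 members were higher and 0 lower, against 32.0% of all genes higher and 25.4% lower, with a median of 1.42. With every library scaled to the same total, 38 members were higher, but so were 50.3% of all genes (6.79% were lower), and the median was 1.88 against 0.65 over all genes.

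**Figure D3:**
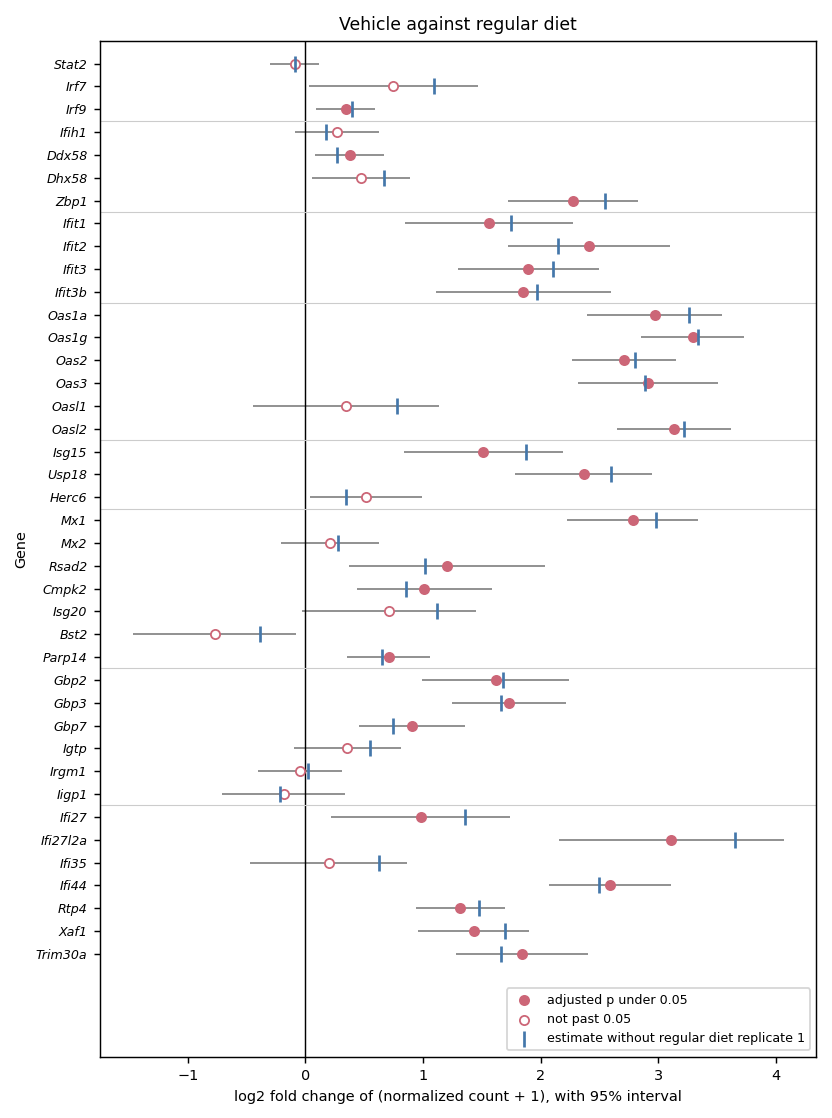
Log2 fold change of (normalized count + 1), vehicle against regular diet, for the 40 members by role, with 95% intervals; filled points passed adjusted p under 0.05 and blue ticks are estimates without regular diet replicate 1. The OAS genes other than Oasl1 lie between 2.71 and 3.29, and the ticks of Bst2, Oasl1, Ifi35 and Irf7 lie well to the right of their points.

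The 6 OAS genes encode or resemble enzymes that make 2′-5′ oligoadenylate, which activates the RNA-cutting enzyme RNase L, and 5 of them rose by 2.71 to 3.29 log2 units (6 of 6 passed without regular diet replicate 1). They lie on chromosome 5 (GRCm38), where Oas2, Oas3, Oas1g and Oas1a are neighbours between 120730333 and 120907521 on the minus strand. Oas1g read 46.7, 34.1, 31.5, 41.3 and 53.5 normalized counts in regular diet replicates 1 to 5, 332 to 543 (median 374) in vehicle and 265 to 533 (median 364) in antibody livers. All 12 DEN and CDA-HFD livers stood far above the 5 regular diet livers. The log2 fold change for vehicle was 3.29 ± 0.21 (SE), with adjusted p = 1.83e-09. Oasl2, an OAS-like protein, read 307, 264, 174, 224 and 259.7 in regular diet, 1417 to 3219 (median 2095) in vehicle and 1317 to 2294 (median 1601) in antibody livers. The groups did not overlap with regular diet, and the vehicle fold change was 3.13 ± 0.23 (adjusted p = 9.85e-09). Oasl1, which restrains translation of Irf7, read 3267, 673, 869.9, 663 and 732 in regular diet and 746 to 1791 (median 1365) in vehicle livers. Its highest value of both groups was regular diet replicate 1, and its fold change was 0.35 ± 0.38 (adjusted p = 0.469) with that library and 0.78 (adjusted p = 0.0222) without it. Oas1a and Oas1g are related genes, and how fragments were divided between them was not tested.

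All 4 IFIT genes, which bind viral RNA or the translation factor eIF3 and stop translation, rose by 1.56 to 2.41, and all 4 passed without regular diet replicate 1 as well. They lie on chromosome 19 between 34550694 and 34650009. Ifit2 read 83.5, 301, 169, 159.6 and 223 in regular diet, 716 to 1297 (median 909) in vehicle and 355 to 1448 (median 855) in antibody livers. For Ifit2 the lowest antibody library, replicate 1, still lay above the highest regular diet library, and the vehicle fold change was 2.41 ± 0.33 (adjusted p = 8.81e-06). Ifit3 read 553, 343, 173, 255 and 339 in regular diet, 819.9 to 1427 (median 1182) in vehicle and 866 to 2154 (median 1472) in antibody livers. Its groups were likewise apart, with a vehicle fold change of 1.90 ± 0.29 (adjusted p = 2.88e-05). Ifit1 and Ifit3b had fold changes of 1.56 and 1.85. Ifit3 and Ifit3b are related genes, and how fragments were divided between them was not tested.

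The ISG15 system attaches and removes a ubiquitin-like tag, and 2 of its 3 genes rose, with or without regular diet replicate 1. Usp18, the protease that removes ISG15 and also blocks IFNAR signalling, read 619, 293, 254, 227 and 349.8 in regular diet, 998 to 2485 (median 1854) in vehicle and 1486 to 2860.3 (median 2319) in antibody livers. No vehicle library overlapped the regular diet range, and the fold change was 2.37 ± 0.28 (adjusted p = 1.74e-06). Isg15 itself read 1550.1, 479, 362, 406 and 509 in regular diet, 1118 to 2584 (median 1617) in vehicle and 1208 to 2637 (median 2008) in antibody livers. Here regular diet replicate 1 lay inside the vehicle range and the other 4 well below it, and the fold change was 1.51 ± 0.32 (adjusted p = 0.000778), or 1.88 without that library. Herc6, the mouse ligase for ISG15, was at 708 ± 216 (SD, n = 5) in regular diet and 985 ± 172 (SD, n = 6) in vehicle livers, a fold change of 0.52 that did not pass (adjusted p = 0.0652).

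Among the antiviral effectors 4 of 7 rose, and 5 without regular diet replicate 1. Mx1, of a family of dynamin-like GTPases, read 128, 106, 45.5, 42.7 and 79.4 in regular diet, 456 to 628 (median 494) in vehicle and 306 to 628 (median 489.8) in antibody livers. These values are of Mx1 RNA and do not show whether a working protein was made. The vehicle libraries lay close together and all above regular diet, with a fold change of 2.78 ± 0.26 (adjusted p = 1.69e-07). Its paralog Mx2, annotated as a polymorphic pseudogene in this strain's reference, was at 365 ± 85.4 (SD, n = 5) and 427 ± 119 (SD, n = 6), a fold change of 0.21 (adjusted p = 0.403) that turned to -0.27 under quantile normalization. Parp14, an ADP-ribosyltransferase, read 1700.0, 2381, 1688, 1679 and 2675 in regular diet, 2770.3 to 3743 (median 3264) in vehicle and 2398 to 4255 (median 3537) in antibody livers. The ranges of regular diet and vehicle met closely without overlap, and the fold change was 0.71 ± 0.17 (adjusted p = 0.00177). Rsad2 (viperin, which makes a chain-terminating nucleotide) and its neighbour on chromosome 12, Cmpk2 (a mitochondrial nucleotide kinase), rose by 1.20 ± 0.40 and 1.01 ± 0.27 (adjusted p = 0.0172 and 0.00488). The Rsad2 call was lost without regular diet replicate 3 and under quantile normalization (adjusted p up to 0.0530), and the Cmpk2 call under the latter (adjusted p = 0.0965).

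In the remaining effectors regular diet replicate 1 lay far from the others. Bst2 read 27836, 7595, 6696, 7175 and 7898 in regular diet, 3399 to 8289 (median 5986) in vehicle and 4792 to 9635 (median 7427) in antibody livers. Replicate 1 lay above every other library in the study, and the remaining regular diet libraries lay inside the vehicle range. The fold change of Bst2 was -0.77 (adjusted p = 0.0605), and -0.39 (adjusted p = 0.167) without that library, so Bst2 was not among the members that rose, and it read 0.12 with libraries at the same total and that library left out. It was called lower under median-ratio scaling (-0.83, adjusted p = 0.0478), with the exon length trend removed (-0.75, adjusted p = 0.0190) and without either regular diet replicate 3 or vehicle replicate 5. Isg20, an RNA exonuclease, had a fold change of 0.71 (adjusted p = 0.102) and of 1.12 (adjusted p = 0.00130) without replicate 1.

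Of the 4 sensors, Zbp1 and Ddx58 rose, and without regular diet replicate 1 the count was again 2, with Dhx58 in place of Ddx58. Zbp1, which senses Z-form nucleic acid and can start necroptosis, read 676, 309.7, 178, 249 and 349.8 in regular diet, 1193 to 2020.0 (median 1502) in vehicle and 1392 to 2341 (median 1627) in antibody livers. Every vehicle library exceeded every regular diet library, with a fold change of 2.27 ± 0.26 (adjusted p = 1.52e-06). Ddx58 (RIG-I, a sensor of viral RNA ends) read 1149.7, 1658, 1714, 1435 and 1856 in regular diet, 1735 to 2403 (median 1948) in vehicle and 1795 to 2676 (median 2188) in antibody livers. The ranges overlapped, and the fold change of 0.37 ± 0.14 (adjusted p = 0.0335) was lost in 7 of 29 alternatives, among them the fits without regular diet replicate 1 (0.27, adjusted p = 0.0701) or without regular diet replicate 4, vehicle replicate 1 or vehicle replicate 5 (adjusted p at most 0.0732). Dhx58 (LGP2), a RIG-I relative, changed by 0.47 (adjusted p = 0.0575), and by 0.67 (adjusted p = 0.00171) without replicate 1. Ifih1 (MDA5, a sensor of long double-stranded RNA) changed by 0.27 (adjusted p = 0.201).

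Of the 3 transcription factors 1 passed, and 2 without regular diet replicate 1. Irf9, the DNA-binding partner of STAT2, read 2326, 2086, 1909.9, 1596 and 2282 in regular diet, 2381 to 2790.2 (median 2583) in vehicle and 2243 to 3001 (median 2654) in antibody livers. The vehicle libraries lay just above the regular diet ones, a fold change of 0.34 ± 0.12 (adjusted p = 0.0235) that was lost without regular diet replicate 3 or 4, in 5 of 29 alternatives in all (adjusted p up to 0.0842). Irf9 exons overlap those of Rnf31 on the same strand, so its counts are uncertain. Exons of Irf7, Dhx58, Oasl1, Usp18, Gbp2 and Ifi35 overlap those of other annotated genes on the opposite strand. The strand setting is not given, so counts of these genes may be uncertain too. Irf7, which amplifies type I interferon production, read 5434, 1997, 1219, 1278 and 2209 in regular diet, 1794 to 5517 (median 3894) in vehicle and 2899 to 5662 (median 4399) in antibody livers. Regular diet replicate 1 lay near the top of all groups, and the fold change was 0.75 ± 0.34 (adjusted p = 0.0780) with it and 1.09 (adjusted p = 0.00305) without it. Stat2 was at 3713 ± 180.0 (SD, n = 5) and 3495 ± 321 (SD, n = 6), a fold change of -0.09 that became 0.53 with libraries at the same total.

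**Figure D4:**
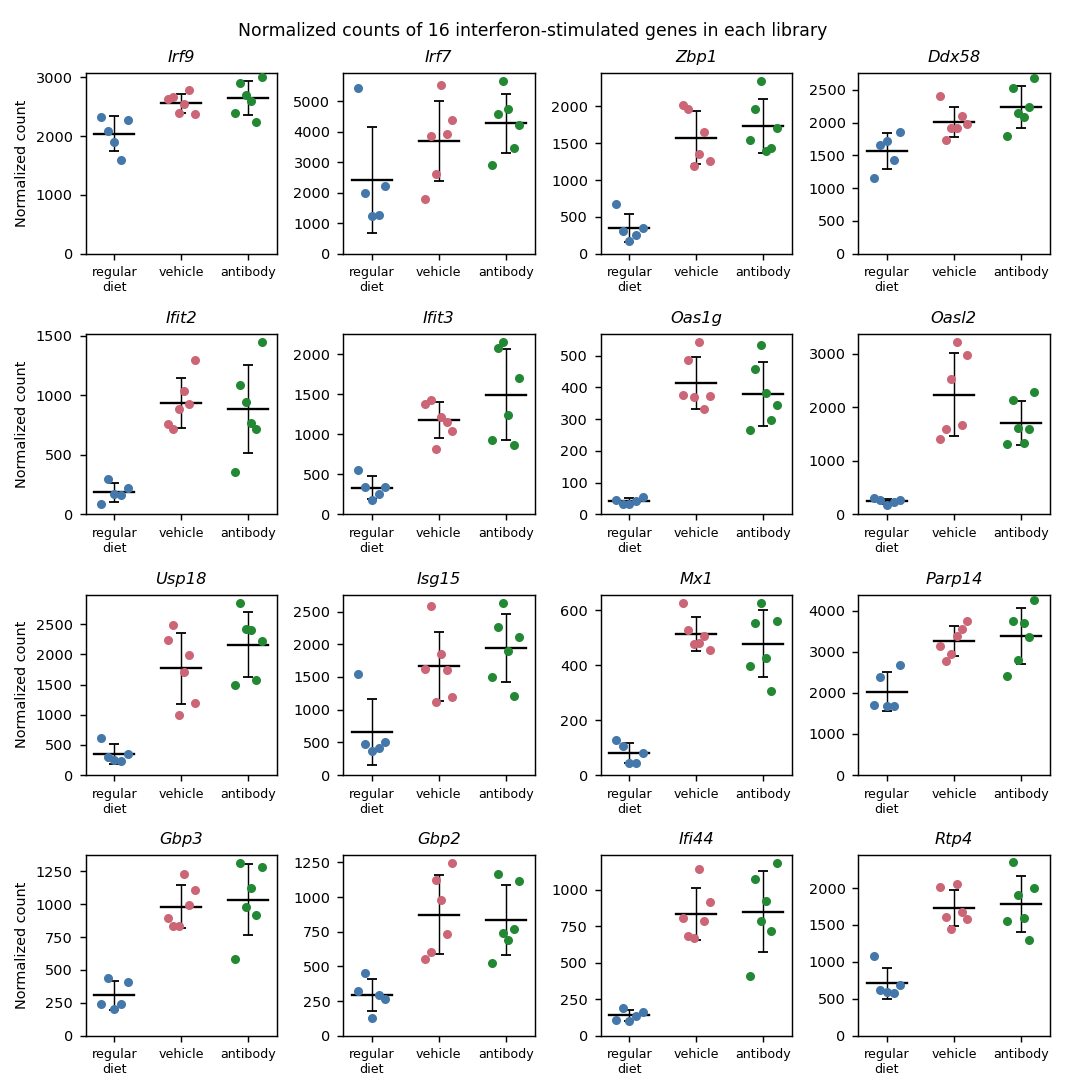
Normalized counts of 16 members in each library (points), with the group mean (horizontal line) and SD (bars); groups are regular diet (n = 5), vehicle (n = 6) and antibody (n = 6), and axes start at 0. Oas1g, Oasl2, Mx1 and Ifi44 show regular diet libraries grouped near the bottom, while Irf7 and Isg15 each have 1 high regular diet library, replicate 1, at 5434 and 1550.1.

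The GTPases of the GBP and IRG families attack the membranes around intracellular microbes and respond strongly to IFN-gamma, and 3 of 6 rose (4 without regular diet replicate 1). Gbp3 read 238, 442, 205, 242 and 405 in regular diet, 832 to 1232 (median 943) in vehicle and 584 to 1316 (median 1051) in antibody livers. For Gbp3 all libraries of both treated groups stood above regular diet, and the vehicle fold change was 1.73 ± 0.23 (adjusted p = 7.34e-06). Gbp2 read 324, 453, 130.4, 290.4 and 261 in regular diet, 552 to 1246 (median 854) in vehicle and 528 to 1164 (median 754) in antibody livers. The fold change was 1.62 ± 0.30 (adjusted p = 0.000203), again without overlap, and Gbp7 rose by 0.91. The IRG GTPases did not pass. Iigp1 changed by -0.18 (adjusted p = 0.567) and Irgm1 by -0.05 (adjusted p = 0.839), and both values were positive at the same total (0.44 and 0.58). With library weights Iigp1 was lower (-0.52, adjusted p = 0.0214), as were 32.4% of all genes. Igtp changed by 0.36 (adjusted p = 0.180), and by 0.55 (adjusted p = 0.0178) without regular diet replicate 1. The 3 GBP genes are neighbours on chromosome 3, and Igtp shares exon sequence with Irgm2 and Gbp7 with Gm43802 on the same strand.

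Of the 7 other induced genes 6 rose, and all 7 without regular diet replicate 1. Ifi44, a cytoplasmic protein induced by type I interferon, read 106, 193, 103, 136 and 160.4 in regular diet, 672 to 1144 (median 795) in vehicle and 407 to 1184 (median 859) in antibody livers. Its groups were apart, with a vehicle fold change of 2.59 ± 0.25 (adjusted p = 1.76e-07). Rtp4, a receptor-transporting protein that restrains some RNA viruses, read 1074, 614, 591, 577 and 687 in regular diet, 1446 to 2055 (median 1642) in vehicle and 1292 to 2354 (median 1749) in antibody livers. Regular diet replicate 1 was again the nearest to vehicle, and the fold change was 1.31 ± 0.18 (adjusted p = 9.65e-06). Rtp4 shares exon sequence with Gm45338 on the same strand, as do Parp14 with Gm49730 and Herc6 with Gm45193. Ifi27l2a rose by 3.11 ± 0.46, Trim30a, a ubiquitin ligase, by 1.84 ± 0.27 and Xaf1, a pro-apoptotic protein, by 1.43 ± 0.22. Ifi27 rose by 0.98 ± 0.36 (adjusted p = 0.0310), a call lost in 8 of 29 alternatives, among them the fits without regular diet replicate 2, 3 or 4 or vehicle replicate 1, 2 or 5 (adjusted p up to 0.0934), and larger without regular diet replicate 1 (1.36, adjusted p = 0.000728). Ifi35 changed by 0.20 (adjusted p = 0.633) with that library and 0.62 (adjusted p = 0.00521) without it.

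Other genes of the pathway were read from lists drawn up by function, with earlier results of these data known. Counts from these lists are a description and not independent support. None of 21 interferon ligand genes reached the threshold for testing, and 13 of them were listed at 0 in every library. No IFN-alpha gene exceeded a normalized count of 1.85 and Ifnb1 did not exceed 3.06. Ifnk, another of the ligand genes, reached 8.18 in vehicle replicate 1. Ifng, the type II interferon, read 4.39, 3.53, 1.75, 0 and 1.53 in regular diet, 1.67 to 12.9 (median 7.30) in vehicle and 2.47 to 13.6 (median 6.50) in antibody livers, which amounts to few fragments, and it was not tested.

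Of 111 tested genes in the other lists, 73 were higher and 6 lower in vehicle livers, where 29.8% of all genes were higher and 20.7% lower. Without regular diet replicate 1 these counts were 80 and 7, against 32.0% and 25.4% of all genes. Among 11 receptors, kinases and STATs, 6 were higher and 1 lower (5 and 1 without that library). Il10rb and Ifnlr1, the chains of the IFN-lambda receptor, rose by 2.65 and 4.20, and Ifngr2, a chain of the IFN-gamma receptor, by 1.40. Ifnlr1 read only 2.46 to 10.7 in regular diet, against 67.8 to 206 in vehicle livers. The size of its rise thus rests on few fragments in regular diet. Stat3 fell by 0.49, a value that read 0.13 with libraries at the same total. Among 7 other interferon regulatory factors, 4 were higher and 2 lower. Irf8, which shapes macrophages and dendritic cells, rose by 2.29, and Irf1, an early factor of the IFN-gamma response, by 0.55. Of 18 sensors and adaptors, 12 were higher and 1 lower: Sting1, the adaptor of DNA sensing, rose by 2.82 and the DNA sensor Aim2 by 2.49, while Mavs, the adaptor of RIG-I and MDA5, fell by 1.22. Of 9 feedback inhibitors 6 were higher and 0 lower (7 and 1 without regular diet replicate 1), with Ptpn6, Socs3 and Socs2 at 1.10, 1.42 and 2.26. Socs2 read 2651 in regular diet replicate 1, above every vehicle library (1791 to 2408), and 160 to 385 in the other regular diet libraries. Of 66 further interferon-induced genes 45 were higher and 2 lower. Ms4a4c rose by 3.38, Slfn8 by 2.79 and Ifi27l2b by 3.85, and Helz2 fell by 0.78.

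Most listed markers of several immune cell types were higher in vehicle livers, but those of Kupffer cells and most of those of B cells were not. In vehicle livers 9 of 10 T cell markers, 8 of 9 NK cell markers, 7 of 8 plasmacytoid dendritic cell markers, 5 of 7 pan-macrophage markers and 6 of 7 tested neutrophil markers were higher. Of the resident macrophage (Kupffer cell) markers 4 of 6 were lower, as were 7 of 9 tested hepatocyte markers (6 without regular diet replicate 1). Of 7 sinusoidal endothelial markers 1 was higher and 3 lower, and 1 of 7 B cell markers was higher. Summed levels of the pan-macrophage list ran from 6589 to 17032 in regular diet, from 44436 to 125829 in vehicle and from 62238 to 110941 in antibody livers. Those of the T cell list ran from 248 to 752, from 877 to 2117 and from 815 to 2430, and those of the hepatocyte list from 1846480 to 4369330, from 530015 to 1859540 and from 1135350 to 2056080. Their part in the rise of the members was not tested. In bulk tissue, more cells of a type and more RNA per cell cannot be told apart. Bst2 is itself on the plasmacytoid dendritic cell list and is the 1 gene of it that was not higher.

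The vehicle livers were not alike in which members were high. Replicates 3, 4 and 6 held the 3 highest vehicle values for 7 members (Oas2, Oas3, Oasl2, Isg20, Gbp2, Ifi27l2a and Trim30a). Replicates 1, 2 and 5 held them for 14 members (Stat2, Irf9, Ifih1, Zbp1, Ifit1, Ifit3b, Oasl1, Usp18, Mx1, Rsad2, Cmpk2, Irgm1, Iigp1 and Ifi27). Oasl2 thus read 2524, 3219 and 2982 in replicates 3, 4 and 6 and 1417, 1604 and 1665 in replicates 1, 2 and 5. Ifi27 read 6495, 7507 and 5487 in the former and 13478, 16004 and 11475 in the latter. Replicates 3, 4 and 6 also held the 3 highest summed levels of the macrophage, T cell, NK cell, B cell, neutrophil and sinusoidal endothelial markers. They held the 3 lowest of the hepatocyte markers. The plasmacytoid dendritic cell and Kupffer cell sums did not follow this split. The remaining members had other sets of 3 replicates, 6 of them replicates 1, 2 and 4. The share of all genes with each set was not counted. On the axis of largest variation over all tested genes and libraries, replicates 3, 4 and 6 lay at 106.3, 108.3 and 112.1. Replicates 1, 2 and 5 lay at 12, 38.11 and 51.32, so the split was not particular to the members. These are descriptions of single libraries, and the part of cell makeup in them was not tested.

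The second comparison asked whether CLDN1 mAb changed these genes against vehicle. None of the 40 members passed in either direction, as none of the 18624 genes did (0% higher and 0% lower by limma), and no member's groups were without overlap, against 0.0644% of all genes with every antibody library higher and 0.258% lower. An unadjusted p under 0.05 was reached by 1 member and by 1391 genes (7.47%). The median log2 fold change of the members was 0.06 and that of all genes -0.05. Fold changes ran from -0.67 for Oas2 to 0.65 for Oasl1, both genes of the OAS family.

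**Figure D5:**
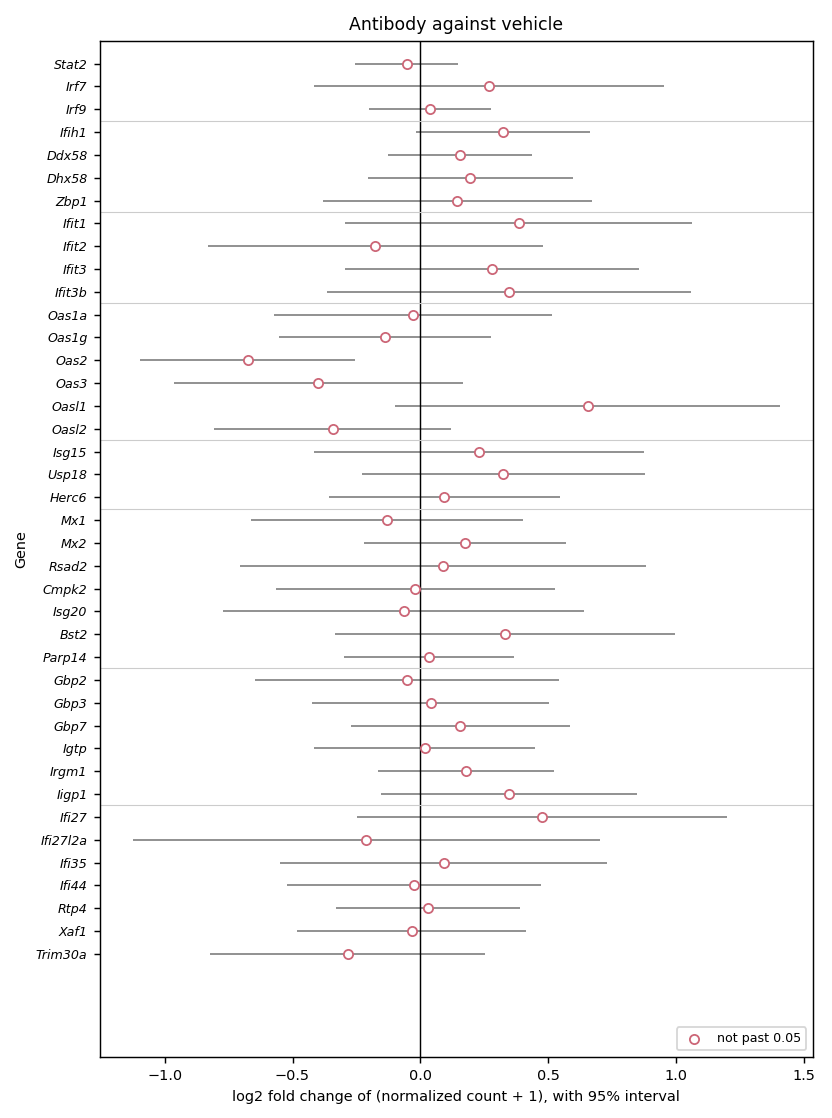
Log2 fold change of (normalized count + 1), antibody against vehicle, for the 40 members by role, with 95% intervals that are not adjusted for the number of genes. All points are open (none passed adjusted p under 0.05); the interval of Oas2, from -1.10 to -0.25, is the 1 that does not include 0.

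Oas2 read 258, 181, 153, 171 and 258 in regular diet, 873 to 1931 (median 1345) in vehicle and 689 to 1029.7 (median 823) in antibody livers. All 6 antibody libraries lay below the vehicle mean, though the ranges overlapped, and the fold change was -0.67 ± 0.20 (limma unadjusted p = 0.00346, adjusted p = 0.659). Oas3 read 56.5, 98.4, 42, 53.7 and 68.7 in regular diet and ran from 262 to 742 (median 471) in vehicle and from 217 to 445 (median 395) in antibody livers, a fold change of -0.40 ± 0.27 (adjusted p = 0.706) with 6 of 6 libraries below the vehicle mean. Oasl2, with the values given above, had -0.34 ± 0.22 (adjusted p = 0.694), with 5 of 6 below. These 3 enzymes of the oligoadenylate branch are also among the 7 members that were highest in vehicle replicates 3, 4 and 6. The members with the smallest p on the other side were Ifih1, Oasl1 and Iigp1. Ifih1 read 1437, 1976, 1973, 1900.4 and 2010.4 in regular diet, 1752 to 3409 (median 2119.8) in vehicle and 2035 to 3182 (median 2931) in antibody livers, with a fold change of 0.32 ± 0.16 (adjusted p = 0.659) and 5 of 6 antibody libraries above the vehicle mean. For Oasl1, antibody livers read 1199 to 3316 (median 1789), a fold change of 0.65 ± 0.36 (adjusted p = 0.666). Iigp1 read 13423, 16638, 15485, 10204 and 18940.0 in regular diet, 8454 to 25367 (median 12542) in vehicle and 13901 to 19148 (median 16473) in antibody livers, a fold change of 0.35 ± 0.24 (adjusted p = 0.709). Intervals were wide, as for Mx1 (-0.66 to 0.40) and Isg15 (-0.42 to 0.87), so differences within them could not be told from 0 here.

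Both treated groups held library codes below 31 and above 35, 3 mice of each group on either side. Oas2 was lower in both runs (-0.51 and -0.84) and so were Oas3 (-0.37 and -0.43) and Oasl2 (-0.11 and -0.57). Ifih1 was 0.13 in the lower run and 0.52 in the upper, Oasl1 0.81 and 0.50, and Iigp1 0.19 and 0.51. These members were picked for the smallest p over the same libraries that the runs split. Like signs in both runs are therefore no separate support. No member passed the adjusted threshold within either run or with the run as a term. A fit that weights libraries by their estimated quality gave another count: 6 members higher (Ifih1, Oasl1, Iigp1, Usp18, Irgm1 and Ifi27) and 2 lower (Oas2 and Oasl2), against 13.5% of all genes higher and 15.0% lower. Under it Oas2 changed by -0.93 (adjusted p = 0.00411) and Ifih1 by 0.58 (adjusted p = 0.00366). The weights ran from 0.0851 for regular diet replicate 1 to 2.53 for antibody replicate 4, and were low for vehicle replicate 1 (0.175), vehicle replicate 2 (0.383) and antibody replicate 1 (0.404). None of the other 31 alternatives called a member in this comparison.

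Set against regular diet, the antibody livers had 32 of 40 members higher and 0 lower, where 24.8% of all genes were higher and 14.1% lower. The same regular diet libraries serve here as in the first comparison, so the calls of the 2 comparisons are not independent. The median log2 fold change was 1.37, against 0.01 over all genes, and without regular diet replicate 1, 34 members were higher (27.6% of all genes) and 0 lower (20.9%). For 19 members every antibody library stood above every regular diet library (18.6% of all genes), and for 0 below (10.4%). Side by side, Oas1g read 3.29 for vehicle and 3.15 for antibody, Mx1 2.78 and 2.65, Ifit3 1.90 and 2.18, Usp18 2.37 and 2.69, and Oas2 2.71 and 2.03. Ifih1 (0.59 ± 0.17, adjusted p = 0.00991), Dhx58 (0.67, adjusted p = 0.0130), Irf7 (1.01, adjusted p = 0.0253), Herc6 (0.61, adjusted p = 0.0398) and Oasl1 (1.00, adjusted p = 0.0429) passed in antibody livers and not in vehicle livers. Without regular diet replicate 1, Dhx58 (adjusted p = 0.00171), Irf7 (adjusted p = 0.00305) and Oasl1 (adjusted p = 0.0222) passed in vehicle livers as well. For none of these 5 did the direct comparison of antibody with vehicle pass. The call of Oasl1 was lost in 13 of 29 alternatives (adjusted p up to 0.110), among them the fits without any 1 of the regular diet libraries but replicate 1, without any antibody library but replicate 5, or without vehicle replicate 4. Herc6 lost its call in 12 (adjusted p up to 0.0917), among them the fits without regular diet replicate 1, 3 or 4 or any antibody library but replicate 1. Irf7 lost it with the replicate number as a block and without regular diet replicate 3 or 4 or antibody replicate 3 (adjusted p up to 0.0800), Irf9 without regular diet replicate 4 (adjusted p = 0.0616) and Cmpk2 under quantile normalization (adjusted p = 0.0904). Bst2, Igtp, Irgm1, Iigp1, Stat2, Mx2, Isg20 and Ifi35 did not pass against regular diet in either group.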

How the data were processed

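RNA from 17 mouse livers was sequenced from 300 ng of total RNA per library. The deposited values are a signal per gene, counts that the authors normalized with cuffnorm (Cufflinks 2.2.1 and the build mm10 stand in the submitters' processing notes). Aligner, annotation and strand setting are not given in the sources used here. No count model was used, since these are not raw counts. Symbols matched 52398 of 52545 identifiers, and exon lengths came from GENCODE M21. Values were tested as log2(value + 1) with limma 3.58.1 (R 4.3.3) with a mean-variance trend, all 3 groups in 1 fit, over genes with at least 10 in at least 5 libraries, and p-values were Benjamini-Hochberg adjusted with a threshold of 0.05. The procedure was tested on simulated data. Each mouse is 1 replicate. Fold changes of low genes are understated by the added 1.

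Genes named with values per library were, for each role, the 2 with the smallest p for vehicle against regular diet, and for antibody against vehicle 3 in each direction by p; from each pathway list, up to 3 with the smallest p and 1 of the opposite direction, plus Ifng, Ifnb1 and Irf1; some genes the rule names are not reported here. The other members are given because all 40 are accounted for; Bst2 and Ifi27 are shown in more detail, chosen after their values were seen. The members and lists were chosen with earlier results of these data known. Alternatives changed the scaling, the added value, the filter, the libraries, weights, block and code run. 2 alternatives were added after the data were seen, one removing a trend with exon length within each library and one joining the same total with the omission of regular diet replicate 1.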

Additional observations from a re-analysis of the deposited data

Results flagged for a closer look

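For each member and group, the highest and lowest library were compared with their nearest neighbour as a share of the group's range (Dixon's criterion at 95%). Of 120 groups of values 9 had such a library, where chance gives about 1 in 20. Regular diet replicate 1 was the library in 8 of the 9. It was far above the other regular diet livers for Oasl1 (3267), Isg15 (1550.1), Isg20 (599), Bst2 (27836), Ifi35 (4771), Rtp4 (1073.5) and Xaf1 (951), and far below them for Ifih1 (1437). By exon length Ifih1 belongs to length class 5, Isg15, Bst2 and Ifi35 to class 1, Isg20, Oasl1 and Rtp4 to class 2 and Xaf1 to class 4. The part of exon length in these values was not tested. Antibody replicate 1 was far below the other antibody livers for Gbp7 (809).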

How the results depend on the processing

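Of the 27 members called higher in vehicle livers, 22 kept the call under all 29 alternatives, and of 32 in antibody livers against regular diet, 27 did. The median for vehicle moved to 1.88 at the same total (all genes moved from 0.04 to 0.65, and to -0.13 under quantile normalization) and to 1.92 at the same total without regular diet replicate 1; for antibody against regular diet these were 1.81 and 1.79. Leaving out 1 library gave 24 to 32 members higher and 0 to 1 lower for vehicle. Of all 18624 genes, 5145 to 5951 were then higher and 3337 to 4729 lower. A member was lower (1) under median-ratio scaling and with the length trend removed (Bst2) and under library weights (Iigp1). Of 111 tested pathway genes, 1 was lower in vehicle at the same total, 2 under quantile normalization and 12 under weights. At the same total without regular diet replicate 1 the count was 3. Over all 18624 genes, 1264, 5223, 6042 and 1807 were lower in these settings in turn. Against regular diet, antibody livers had 1 pathway gene lower at the same total and 9 under weights. Of all genes, 831 and 5183 were lower there. For antibody against vehicle, weights gave 6 members and 14 pathway genes higher, and 2 and 34 lower. Of all genes, 13.5% were higher and 15.0% lower under weights. The cause was not tested.

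Vehicle values that changed sign were Stat2 (0.53 at the same total, 0.23 under quantile normalization, 0.42 at the same total without regular diet replicate 1), Irgm1 (0.58, 0.26 and 0.53, and from -0.18 to 0.0231 with 1 library left out, above 0 without regular diet replicate 1 or vehicle replicate 3, 4 or 6), Iigp1 (0.44, 0.49 and 0.29), Mx2 (-0.27 under quantile normalization), Bst2 (0.12 at the same total without regular diet replicate 1) and Stat3 (0.13 at the same total). For antibody against vehicle, 22 of 40 members changed sign under at least 1 of 32 alternatives, and only the 6 members named there were followed in full, a limit set after those sign changes were seen.

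The replicate numbers name mice and no label pairs them; the correlation of same-numbered deviations ran from -0.344 to 0.656. With the replicate block, 25 members were higher for vehicle, 30 for antibody against regular diet and 0 for antibody against vehicle. Of all 18624 genes, 5393, 4408 and 0 were higher in these comparisons.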
